A study of Rattus norvegicus with 16 samples.

Results

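Forelimb tendons of the rat were set against hindlimb tendons across all genes. On the forelimb side were forepaw flexor tendons, which bend the digits, and the supraspinatus tendon at the shoulder. On the hindlimb side were the Achilles tendon at the heel and the patellar tendon at the knee. Each tendon of these Sprague Dawley rats, an outbred laboratory stock, had 4 libraries of total RNA, so 8 libraries stood on each side. A gene was called limb-separated when the 8 libraries of one limb all lay above the 8 libraries of the other. That held for 2602 of the 16948 genes tested, a share of 15.4%. The labels name no treatment, age or sex and no genotype beyond the strain, and the limb was taken from the anatomy of the labelled tendon. The titles number the 4 libraries of a tendon after the word Rat, but nothing says whether a number marks an animal or whether tendons share animals, so p-values measure the spread between these libraries, which may be technical. With 2 tendons on each side, a difference between limbs cannot be told apart from a difference between these pairs of tendons.

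Forelimbs and hindlimbs grow from separate buds that share most of their patterning machinery. In embryos Tbx5 starts the forelimb bud, while Pitx1, Tbx4 and Isl1 act in the hindlimb bud, and HOX genes are read along the body axis in the order of their place in each cluster. Adult connective tissue fibroblasts are known to keep a positional pattern of HOX expression. A tendon is a dense tissue of aligned type I collagen made by tendon fibroblasts, with a sheath, vessels and nerves, and it joins muscle at one end and bone at the other. In whole-tissue RNA, fewer cells of a type and less RNA per cell cannot be told apart.

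The libraries held 63397591 to 102491699 counts each, which puts a floor of 3 counts at 0.0293 to 0.0473 CPM of the plain totals. Levels are given in CPM, the count scaled to a common library size after TMM scaling, a correction for differences in RNA composition between libraries. The TMM factors of the supraspinatus libraries lay between 0.7312 and 0.8763 and those of the other libraries between 1.007 and 1.162. Among the 500 most variable genes, 15 of the 16 libraries were nearest to a library of their own tendon, and the exception, Achilles 1, was nearest to a patellar library. Tendon fibroblast genes were abundant in every library, with sums of 46764.5 to 89834.9 CPM in forelimb and 57645.2 to 150612 CPM in hindlimb libraries. Achilles 1 had 8497 CPM summed over the Schwann cell markers, against 1220 to 1490 CPM in the other Achilles libraries. Fibre genes of skeletal muscle, without Car3, took 7.47, 4.41, 1.94 and 5.53% of the counts in the flexor libraries and 17.1, 13.2, 14.9 and 20.8% in the supraspinatus libraries. They took 0.0555, 1.46, 0.34 and 1.42% in the Achilles libraries and 4.11, 0.168, 0.0511 and 0.539% in the patellar libraries. Muscle RNA was thus more abundant on the forelimb side, but patellar 1 held more of it than flexor 3.

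In edgeR's quasi-likelihood test of the mean of the forelimb tendons against the mean of the hindlimb tendons, 5140 genes were higher and 4831 lower in forelimb tendons at an adjusted p under 0.05. Those are 30.3% and 28.5% of the genes tested, 58.8% together. On plain library totals, without the TMM factors, the split was 3261 higher against 7221 lower, since with that scaling the median log2 fold change over the genes tested was -0.22, against 0.02 with TMM. Of the separated genes, 1026 were higher in forelimb tendons, 6.05% of the genes tested, and 1576 were lower, 9.3%. Counts of called and separated members of the gene lists below are to be read beside these shares. All 2602 passed the test between limbs, which their choice all but fixes, and nothing is read from it. Counted over every gene of the table with a count, whatever its level, 1023 genes were higher and 1596 lower. The edge of the rule was thin: Endog, a mitochondrial nuclease, was inside with a lowest forelimb library of 4.619 CPM and a highest hindlimb library of 4.618 CPM. Man2a2, a mannosidase of the Golgi, was just outside, at 42.895 CPM in its lowest forelimb library and 42.904 CPM in its highest hindlimb library.

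A wide gap between the limbs was less common. The gap, the log2 of the lowest library of the higher limb over the highest library of the other at CPM + 0.1, exceeded 1 for 80 genes higher in forelimb tendons and for 233 genes lower there. The widest gaps belonged to Grem1 on the forelimb side, at 4.81, and to Hoxc10 on the hindlimb side, at -6.01, negative where the hindlimb was higher. The median log2 fold change was 1.27 among the separated genes that were higher and -1.38 among those that were lower, beside 0.02 over all genes tested. The plot of mean levels shows both groups against the rest of the genes.

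**Figure D1:**
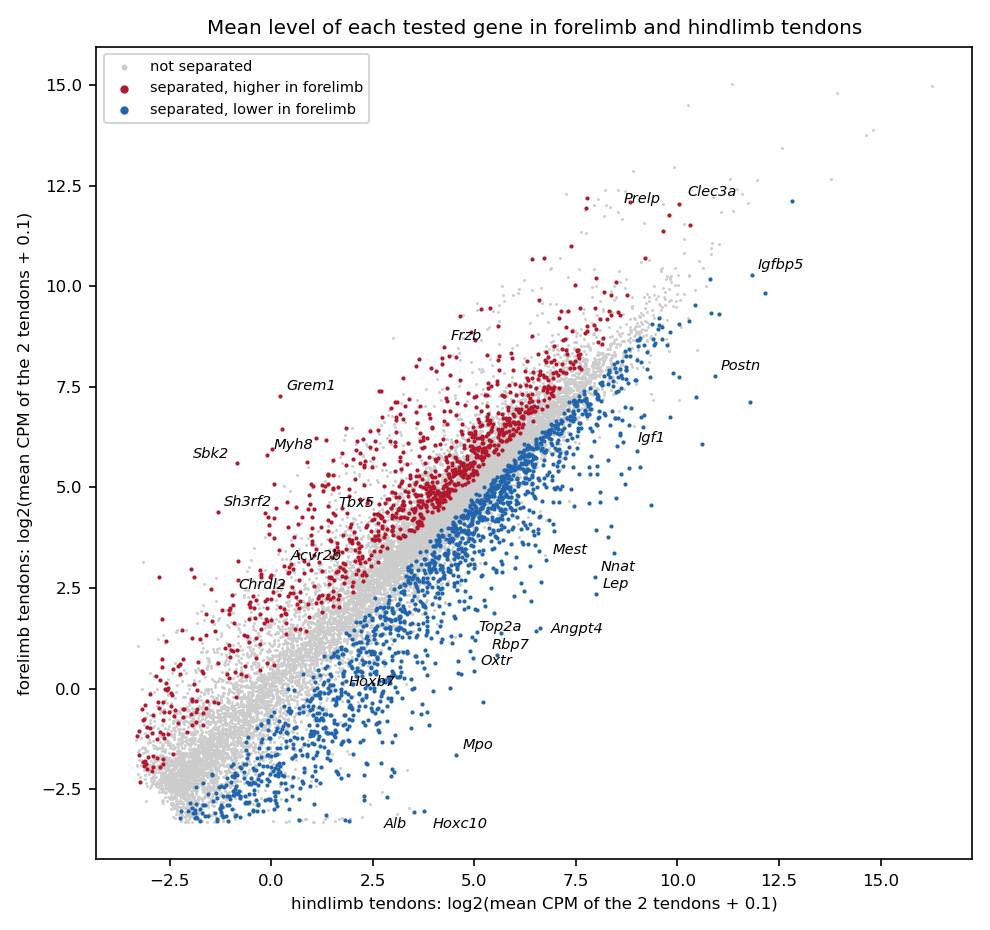
Mean level of each of the 16948 tested genes in forelimb tendons (y axis) and hindlimb tendons (x axis), each as log2 of the mean CPM of the limb's 2 tendons + 0.1. Red points are the 1026 limb-separated genes higher in forelimb tendons, blue points the 1576 that are lower, and grey points the rest; Grem1 lies far above the diagonal and Hoxc10 and Alb far below it.

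Of the HOX genes tested, 6 were limb-separated, all lower in forelimb tendons: Hoxc8, Hoxc9, Hoxc10, Hoxc11, Hoxb7 and Hoxb9. Over the 23 HOX genes tested, 3 were higher and 13 lower in forelimb tendons, with a median log2 fold change of -0.78. Hoxc10 (ENSRNOG00000016149) had 1 or 2 counts in each flexor library and 0 to 4 counts in each supraspinatus library. In CPM it stood at 10.6, 14.4, 9.95 and 12.7 in the Achilles libraries and 16.7, 14.2, 14 and 14.9 in the patellar libraries, from 987 to 1393 counts each. The limbs were thus set apart by near absence on the forelimb side, and a fold change would rest on those few counts.

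The 4 separated genes of the HOXC cluster are neighbours in RefSeq order. Hoxc8 read 0.00944, 0.0202, 0.00973 and 0 CPM in the flexor libraries and 0.417, 0.191, 0.307 and 0.0162 CPM in the supraspinatus libraries, against 2.71, 2.38, 2.49 and 3.07 CPM in the Achilles and 9.9, 13.6, 12.9 and 13.8 CPM in the patellar libraries. Hoxc9 had a highest forelimb library of 0.331 CPM and a lowest hindlimb library of 1.28 CPM. Hoxc11 was at 0 or 1 count in every forelimb library, against 2.59, 2.57, 2.66 and 2.96 CPM in the Achilles and 0.426, 0.383, 0.317 and 0.242 CPM in the patellar libraries. On the hindlimb side Hoxc8 was lower, and Hoxc11 higher, in all 4 Achilles libraries than in any patellar library. Hoxc4, Hoxc5 and Hoxc6, earlier in the cluster, did not separate the limbs. Hoxc6 was at 2.49 to 3.86 CPM in supraspinatus libraries, against 0.966 to 1.35 CPM in Achilles libraries.

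In the HOXB cluster, Hoxb7 (ENSRNOG00000007611) was at 1.69, 1.47, 1.09 and 1.47 CPM in the flexor and 1.23, 0.7, 0.586 and 0.631 CPM in the supraspinatus libraries. It was at 8.65, 8.24, 10.1 and 7.9 CPM in the Achilles and 12.5, 11.3, 8.71 and 9.29 CPM in the patellar libraries. The highest forelimb library stood at 1.69 CPM and the lowest hindlimb library at 7.9 CPM, a log2 fold change of -3.16 ± 0.16 (adjusted p = 9.8e-09). Hoxb9 was low on both sides, with 0 counts in all 4 supraspinatus libraries and 18 to 37 counts in the hindlimb libraries. None of the HOXD genes tested separated the limbs. Hoxd9 to Hoxd13 had their highest mean levels in the flexors, as for Hoxd13, the last gene of the cluster, at 16.6, 14.2, 22.1 and 17.2 CPM there and 0 to 6 counts in each library of the other tendons. The HOXA genes are not analysed here.

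**Figure D2:**
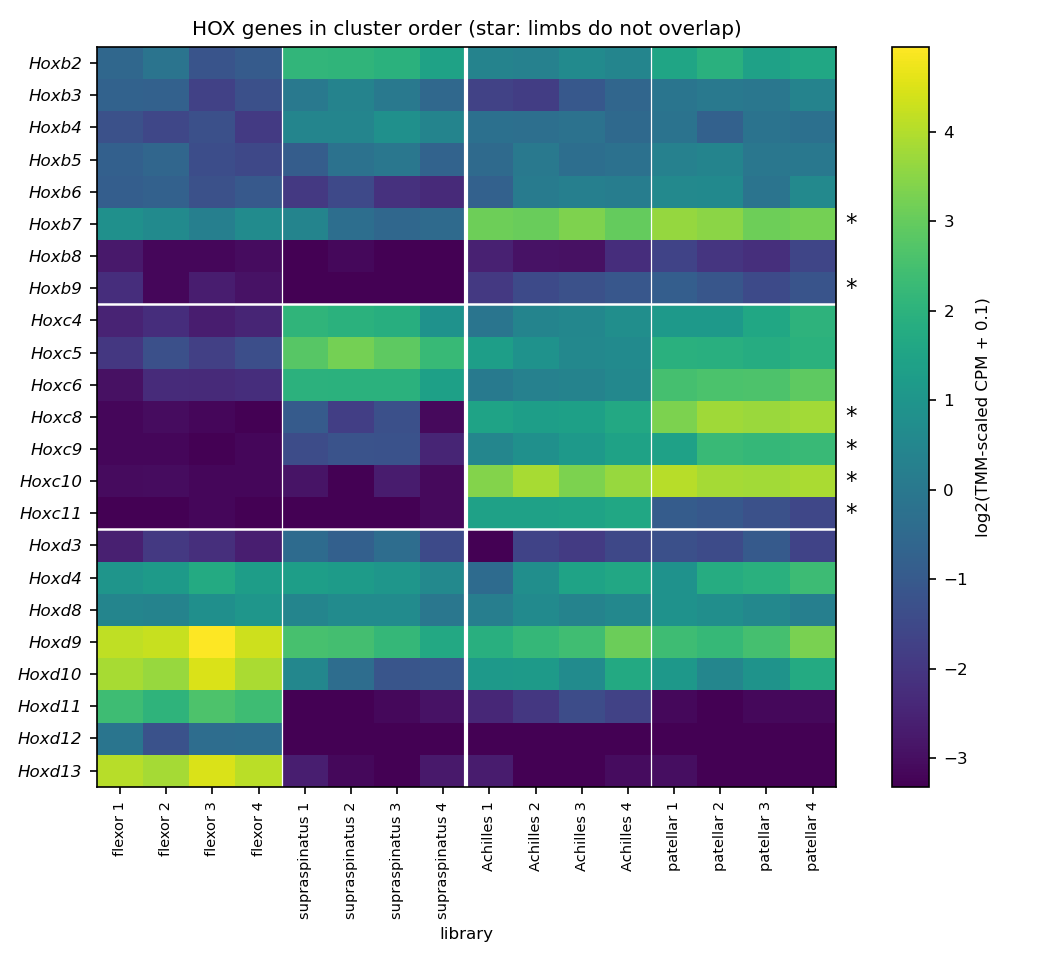
Level of the 23 HOX genes tested (rows, by cluster and in cluster order) in each of the 16 libraries (columns, forelimb libraries left of the thick line), as log2(TMM-scaled CPM + 0.1). Stars mark the 6 genes whose limbs do not overlap, among them the run from Hoxc8 to Hoxc11, which is dark in forelimb and bright in hindlimb libraries.

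Among the other patterning factors the separated genes were mostly higher in forelimb tendons. Of 42 tested, 6 were limb-separated and higher in forelimb tendons and 1 was lower, beside 6.05% and 9.3% of all genes. On library totals 4 were separated and higher and 2 lower. In the test between limbs 16 were higher and 15 lower, beside 30.3% and 28.5% of all genes, so those calls had no clear direction. Tbx5 (ENSRNOG00000001399), the T-box gene that starts the forelimb bud, stood at 25.3, 25.9, 39.4 and 25.3 CPM in the flexor and 12.3, 14.2, 13.5 and 8.41 CPM in the supraspinatus libraries. It was at 0.416, 0.466, 0.817 and 0.156 CPM in the Achilles and 1.06, 6.86, 6.05 and 6.16 CPM in the patellar libraries. The limbs did not overlap, but they came close, with 8.41 CPM in supraspinatus 4 and 6.86 CPM in patellar 2, and on library totals they overlapped. Tbx15, a T-box gene of limb and trunk mesenchyme, ran from 35.5 to 69 CPM in forelimb and from 14 to 25.9 CPM in hindlimb libraries.

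Eya1 and Six2, partners in a transcription complex of limb mesenchyme, were the separated genes of a list of tendon fibroblast genes together with Tppp3. Of its 25 tested members, 12 were higher and 3 lower in forelimb tendons. With muscle marker level added to the fit as a covariate, 4 were higher and 2 lower. Eya1 had medians of 11.9 CPM in forelimb and 0.727 CPM in hindlimb libraries. Six2 had medians of 3.4 CPM in forelimb and 0.225 CPM in hindlimb libraries, and overlapped on library totals. Islr2 (1.49 to 4.91 CPM in forelimb, 0.227 to 0.763 CPM in hindlimb libraries), Hand1 and Barx2 were higher in forelimb tendons at low levels. Hand1 and Barx2 did not pass the test once muscle marker level was added to the fit as a covariate (adjusted p = 0.13 and 0.70), and Barx2 overlapped on library totals.

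Shox2, a homeobox gene of the upper limb segments in embryos, was the separated patterning factor lower in forelimb tendons, at 1.46 to 3.08 CPM there and 4.45 to 32.7 CPM in hindlimb libraries. The hindlimb factors of the embryo did not follow the limb. Tbx4 was at 26.2, 24.2, 45.8 and 28.3 CPM in the flexor and 0.956, 1.18, 1.06 and 1.12 CPM in the supraspinatus libraries, against 6.43, 15.3, 15.1 and 31.6 CPM in the Achilles and 3.7, 6.33, 11.7 and 14.6 CPM in the patellar libraries. Its fitted log2 fold change of -1.10 ± 0.31 (adjusted p = 0.0073) averaged opposite forelimb tendons and turned to 1.30 with supraspinatus left out. Pitx1 was near 0 in the flexors and shared by the others (7.78 to 17.5 CPM in supraspinatus libraries), and Isl1 was high in Achilles tendon alone, at 12.8, 23, 22.8 and 24.4 CPM.

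BMP signals are held in check outside the cell by antagonists such as gremlins and chordins, and in the limb bud Grem1 keeps the signalling centres active. Grem1 (ENSRNOG00000026053) had the widest gap on the forelimb side of all genes at 5 CPM or more. It was at 195, 171, 263 and 161 CPM in the flexor and 100.4, 135, 115 and 89.4 CPM in the supraspinatus libraries. It was at 1.55, 1.53, 0.877 and 3.08 CPM in the Achilles and 0.572, 0.383, 0.145 and 0.382 CPM in the patellar libraries. The lowest forelimb library thus stood at 89.4 CPM and the highest hindlimb library at 3.08 CPM, a log2 fold change of 7.51 ± 0.31 (adjusted p = 2.0e-09), and 6.95 ± 0.53 with the muscle covariate.

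Of the 44 BMP pathway genes tested, 20 were higher and 10 lower in forelimb tendons, with 4 separated in each direction, but 14 were higher and 13 lower on library totals. With TMM, 30.3% of all genes were higher and 28.5% lower, and 6.05% and 9.3% were separated. With the muscle covariate 8 genes of the list were higher and 5 lower. Beside Grem1, the antagonist genes Chrdl2 and Twsg1 were higher. Chrdl2 ran from 2.52 to 7.1 CPM in forelimb and from 0.124 to 0.797 CPM in hindlimb libraries. Twsg1 had medians of 298 CPM in forelimb and 188 CPM in hindlimb libraries, and overlapped on library totals. Rgma, a BMP co-receptor, had medians of 64.8 CPM in forelimb and 37.8 CPM in hindlimb libraries. Another antagonist went the opposite way: Chrdl1 ran from 29.2 to 69 CPM in forelimb and from 124 to 217 CPM in hindlimb libraries.

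Gdf5, the ligand of the BMP family that marks forming joints and tendon attachments, was at 0.311, 0.383, 0.7 and 0.567 CPM in the flexor and 1.89, 1.73, 0.865 and 0.744 CPM in the supraspinatus libraries. It was at 10.5, 12.7, 12.6 and 14.2 CPM in the Achilles and 14.7, 6.52, 9.36 and 7.07 CPM in the patellar libraries, a log2 fold change of -3.76 ± 0.26 (adjusted p = 6.6e-08). Id3, a target gene of BMP signals, had medians of 106 CPM in forelimb and 215 CPM in hindlimb libraries, and Eng, a co-receptor of endothelial cells, of 185 CPM and 499.9 CPM in forelimb and hindlimb libraries. Grem1 was high where Gdf5 and Id3 were low, which follows from the rule that chose all of them. A link between their levels was not tested.

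Of the TGF-beta and activin genes, 14 of 24 tested were higher and 4 lower in forelimb tendons (10 and 6 on library totals), and 2 were separated, both higher. Among all genes 30.3% were higher, 28.5% lower and 6.05% separated and higher. Acvr2b, a receptor that binds activins and myostatin, ran from 5.87 to 9.54 CPM in forelimb and from 0.602 to 1.72 CPM in hindlimb libraries (log2 fold change 2.83 ± 0.21, adjusted p = 1.1e-07). Smad3, which carries the signal to the nucleus, ran from 117 to 193 CPM in forelimb and from 38.9 to 72.7 CPM in hindlimb libraries. Both kept their call with the muscle covariate, at 2.07 ± 0.40 and 1.07 ± 0.17, but with it 5 genes of the list were higher and 0 lower. Acvr1c, a type I receptor that is abundant in fat, was on the hindlimb side, at 0.0613 to 4.76 CPM in forelimb and 17.8 to 55.9 CPM in hindlimb libraries.

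**Figure D3:**
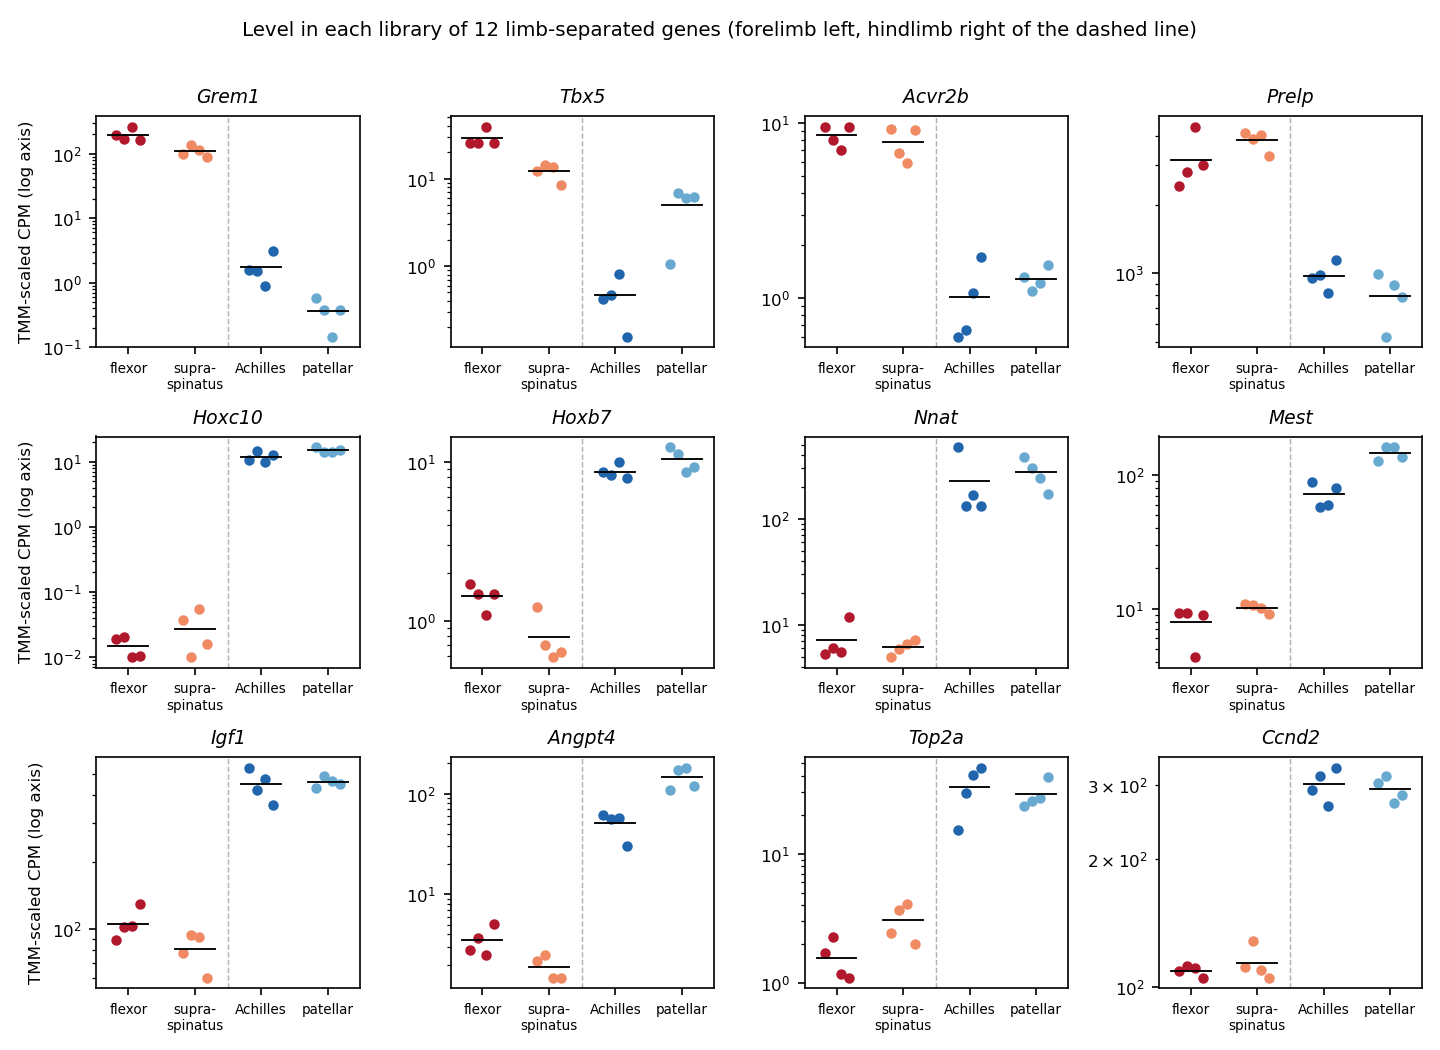
Level in each library (TMM-scaled CPM, log axis) of 12 limb-separated genes, with the 4 libraries of each tendon as points and their mean as a line; forelimb tendons stand left of the dashed line, and a library at 0 is drawn at 0.01 CPM. Grem1, Tbx5, Acvr2b and Prelp are higher in every forelimb library, and the other 8 genes are lower in every forelimb library.

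Wnt ligands bind Frizzled receptors, R-spondins strengthen the signal, and Sfrp, Frzb and Dkk proteins are secreted binders that mostly weaken it. Of 51 genes tested in the pathway, 24 were higher and 11 lower in forelimb tendons, with 4 and 1 separated. The shares of all genes were 30.3% and 28.5% called, and 6.05% and 9.3% separated. On library totals 20 were higher and 14 lower, and with the muscle covariate 7 were higher and 2 lower. The ligand Wnt4 was low, with medians of 2.27 CPM in forelimb and 1.11 CPM in hindlimb libraries, and was not called with the muscle covariate (adjusted p = 0.15). Rspo1, an R-spondin, was at 28.3, 31.3, 49.6 and 33.3 CPM in the flexor and 13.2, 12.5, 10.3 and 5.5 CPM in the supraspinatus libraries, against 0.438 to 3.51 CPM in hindlimb libraries. The antagonist genes were split. Frzb was at 311, 314, 1242 and 729 CPM in the flexor and 63.4, 96, 81.6 and 63.6 CPM in the supraspinatus libraries, against 7.7 to 37.7 CPM in hindlimb libraries. Dkk3 had medians of 878 CPM in forelimb and 265 CPM in hindlimb libraries, but did not pass the test with the muscle covariate (adjusted p = 0.068).

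Sfrp2 went the opposite way, at 6.41, 6.61, 5.35 and 8.95 CPM in the flexor and 62.5, 37.6, 52.3 and 17.7 CPM in the supraspinatus libraries, against 75.3, 235, 187 and 275 CPM in the Achilles and 143, 358, 335 and 580.1 CPM in the patellar libraries. Flexor libraries were the lowest and the patellar libraries other than patellar 1 the highest, and its log2 fold change was -3.94 ± 0.35 (adjusted p = 5.2e-07). On library totals the limbs overlapped for Rspo1, Dkk3 and Wnt4, while the direction of each stayed as with TMM.

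The insulin-like growth factors drive growth of connective tissue and are held by binding proteins outside the cell. Over the 19 genes of the axis, 7 were higher and 7 lower in forelimb tendons, but 5 of the 6 separated genes were lower. Beside them, 30.3% of all genes were higher and 28.5% lower, and 6.05% and 9.3% were separated. Igf1 (ENSRNOG00000004517) was at 89.3, 102, 103 and 129 CPM in the flexor and 78, 93.4, 91.5 and 60.2 CPM in the supraspinatus libraries. It was at 532, 420.1, 473 and 362 CPM in the Achilles and 429, 487, 464 and 448 CPM in the patellar libraries, a log2 fold change of -2.29 ± 0.11 (adjusted p = 8.6e-09), and -1.90 ± 0.20 with the muscle covariate. The highest forelimb library, flexor 4, was thus far below the lowest hindlimb library, Achilles 4. The ligand Igf2 followed at lower levels, 4.71 to 13.4 CPM in forelimb and 14.6 to 36.1 CPM in hindlimb libraries.

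The binding proteins were among the most abundant separated genes. Igfbp5 ran from 889 to 1684 CPM in forelimb and from 2684 to 4537 CPM in hindlimb libraries. Igfbp4 ran from 82.4 to 397 CPM in forelimb and from 735 to 1241 CPM in hindlimb libraries. Igfals, which forms a complex with Igf1 in blood and is best known from liver, was low in both, with medians of 0.236 CPM in forelimb and 2.16 CPM in hindlimb libraries. The receptor that clears Igf2, Igf2r, was the exception on the forelimb side, with medians of 124 CPM there and 66.6 CPM in hindlimb libraries.

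Igf2 and Igf2r belong to the imprinted genes, which are read from one parental copy and act on growth. In this list of 17, 5 genes were higher and 7 lower in forelimb tendons, and 2 and 4 were separated. All genes tested gave 30.3% and 28.5% called, and 6.05% and 9.3% separated. Nnat (ENSRNOG00000024923), a small membrane protein of nerve and fat cells, was at 5.3, 6.06, 5.55 and 12 CPM in the flexor and 4.95, 5.91, 6.56 and 7.15 CPM in the supraspinatus libraries. It was at 474, 132, 168 and 132 CPM in the Achilles and 385, 299.6, 241 and 169.7 CPM in the patellar libraries. Both forelimb tendons were low and both hindlimb tendons high (log2 fold change -5.23 ± 0.34, adjusted p = 4.0e-08). Achilles 1 alone reached 474 CPM.

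Mest was at 9.24, 9.24, 4.32 and 8.93 CPM in the flexor and 10.8, 10.6, 10.1 and 9.06 CPM in the supraspinatus libraries, against 89.4, 57.7, 59.8 and 79.9 CPM in the Achilles and 128, 162, 163 and 136 CPM in the patellar libraries. Plagl1, a zinc-finger factor, ran from 7.65 to 17.5 CPM in forelimb and from 24.4 to 64.3 CPM in hindlimb libraries. Slc38a4, an amino acid transporter, was a forelimb gene, at 14 to 112 CPM there and 2.28 to 11.2 CPM in hindlimb libraries. Adipocyte markers were lower on the forelimb side too, as given below, and their part in the levels of Nnat and Mest was not tested.

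Fibroblast growth factors gave genes in both directions. In the FGF and PDGF list, 3 of 25 tested genes were separated each way, beside 6.05% higher and 9.3% lower of all genes. Fgf9, a ligand of skeletal growth, ran from 8.25 to 29.3 CPM in forelimb and from 2.12 to 6.56 CPM in hindlimb libraries, and overlapped on library totals. Fgf10, the ligand that drives limb bud outgrowth, ran from 0.858 to 6.26 CPM in forelimb and from 12.7 to 25.1 CPM in hindlimb libraries. The 2 ligands therefore pointed opposite ways, with log2 fold changes of 2.04 ± 0.22 and -2.49 ± 0.24 (adjusted p = 2.7e-06 and 1.1e-06). The receptor Fgfr4 had medians of 12.4 CPM in forelimb and 1.89 CPM in hindlimb libraries, and was not called with the muscle covariate (adjusted p = 0.16).

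Of the 29 hedgehog and retinoic acid genes tested, 13 were higher and 8 lower in forelimb tendons, with 1 and 2 separated. Shares over all genes were 30.3% and 28.5% called, and 6.05% and 9.3% separated. On library totals 8 genes of the list were called in each direction. Rbp4, the carrier of retinol in blood, which liver and fat release, ran from 16.8 to 53.7 CPM in forelimb and from 219.8 to 732 CPM in hindlimb libraries. Rbp7, a retinol-binding protein of fat and its vessels, ran from 1.1 to 4.94 CPM in forelimb and from 41.3 to 157 CPM in hindlimb libraries. Crabp1, which binds retinoic acid inside the cell, had medians of 15.5 CPM in forelimb and 60.1 CPM in hindlimb libraries. The receptor that takes up retinol from Rbp4, Stra6, was on the forelimb side at a low level, with medians of 4.13 CPM there and 0.549 CPM in hindlimb libraries, and overlapped on library totals.

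Endothelial and angiopoietin genes were mostly lower on the forelimb side. Of the 21 angiopoietin and VEGF ligands and receptors tested, 13 were lower and 4 higher in forelimb tendons, and 7 were separated, all 7 lower. Angpt4, a ligand of the receptor Tek, was at 2.8, 3.67, 2.52 and 5.12 CPM in the flexor and 2.19, 2.5, 1.48 and 1.49 CPM in the supraspinatus libraries, against 61.6, 55.9, 57.8 and 30.4 CPM in the Achilles and 108, 174, 182 and 119 CPM in the patellar libraries. Angptl4, a secreted inhibitor of lipoprotein lipase, ran from 1.97 to 3.13 CPM in forelimb and from 19.9 to 112 CPM in hindlimb libraries. Both were more than 4 units lower on the log2 scale, at -5.06 ± 0.23 and -4.30 ± 0.30 (adjusted p = 4.2e-09 and 6.7e-08).

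Angpt2, a ligand of vessel remodelling, had medians of 28.1 CPM in forelimb and 102 CPM in hindlimb libraries. The receptors Tek and Tie1 had medians of 95.7 and 171 CPM in forelimb libraries, against 256 and 347 CPM in hindlimb libraries. The apelin ligand gene Apln and its receptor gene Aplnr were separated too, with medians of 3.68 and 49.2 CPM in forelimb libraries, against 17 and 141 CPM in hindlimb libraries. All 15 endothelial markers tested were lower in forelimb tendons, 6 of them separated, and their summed level ran from 695 to 1936 CPM in forelimb and from 2032 to 3904 CPM in hindlimb libraries. Many of these ligands and receptors are genes of vessel cells, and the part of the vessel content in their levels was not tested. Pericyte and smooth muscle markers did not share the direction. Of 14 tested, 3 were higher and 4 lower in forelimb tendons, with 1 and 2 separated. Their summed level overlapped, with medians of 5121 CPM in forelimb and 2178 CPM in hindlimb libraries.

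Matrix genes went both ways. Of the 11 fibrillar collagens tested, 4 were higher and 4 lower in forelimb tendons, and 0 were separated, beside 15.4% of all genes. On library totals 2 of these collagens were separated, both lower. Prelp (ENSRNOG00000003120), a leucine-rich proteoglycan that binds collagen, was at 2425, 2792, 4407 and 2994 CPM in the flexor and 4141, 3872, 4025 and 3281 CPM in the supraspinatus libraries. It was at 947, 976, 819 and 1138 CPM in the Achilles and 988, 525, 887 and 787 CPM in the patellar libraries (log2 fold change 1.98 ± 0.15, adjusted p = 1.5e-07). Vcan, the large hyaluronan-binding proteoglycan versican, ran from 229 to 699 CPM in forelimb and from 50.8 to 141 CPM in hindlimb libraries. Clec3a, a C-type lectin known from cartilage, ran from 3495 to 6707 CPM in forelimb and from 228 to 2027 CPM in hindlimb libraries, but was not called with the muscle covariate (adjusted p = 0.12).

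Cilp, a protein of the cartilage and tendon matrix, was at 1381, 1383, 2405 and 1500.1 CPM in the flexor and 370.0, 462, 461 and 375 CPM in the supraspinatus libraries, against 115 to 261 CPM in hindlimb libraries. The flexors stood above the supraspinatus, yet both stood above every hindlimb library. Tppp3, a tubulin-binding protein that marks cells of the tendon sheath, had medians of 644 CPM in forelimb and 169.8 CPM in hindlimb libraries. Fbln2, Mfge8 and Sdc4 were separated as well, with narrow gaps of 0.10, 0.08 and 0.09 on the log2 scale, and each overlapped on library totals. Among chondrocyte markers, 8 of 17 tested were higher and 2 lower in forelimb tendons. Sox6, a factor of the cartilage programme, ran from 21.4 to 49.8 CPM in forelimb and from 5.7 to 12.6 CPM in hindlimb libraries. Sox9 and Trps1, also separated, overlapped on library totals and were not called with the muscle covariate (adjusted p = 0.14 and 0.078).

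Of 57 matrix glycoproteins tested, 4 were separated and higher and 7 separated and lower in forelimb tendons, beside 6.05% and 9.3% of all genes. The same counts were 3 and 4 of 36 proteoglycans, 0 and 3 of 30 other collagens, and 0 and 0 of 11 fibrillar collagens. Postn, the matrix protein periostin, was at 56.2, 76.3, 90.04 and 112 CPM in the flexor and 318, 619, 294 and 175 CPM in the supraspinatus libraries, against 1551, 1267, 1103 and 684 CPM in the Achilles and 1515, 2428, 3283 and 3664 CPM in the patellar libraries. The flexors were lowest and the patellar libraries other than patellar 1 highest, and the limbs came closest in supraspinatus 2 and Achilles 4. Srpx, a sushi-domain protein, ran from 46.5 to 76.1 CPM in forelimb and from 254 to 516 CPM in hindlimb libraries. Mfap2, a microfibril protein that binds growth factors, ran from 18.3 to 67.1 CPM in forelimb and from 172 to 389 CPM in hindlimb libraries. Egfl6, a basement membrane protein, had medians of 10.3 CPM in forelimb and 88.2 CPM in hindlimb libraries.

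The basement membrane genes Col4a1, Col4a2, Col18a1 and Nid1 were all separated and lower in forelimb tendons. Col4a1 ran from 435 to 838 CPM in forelimb and from 1094 to 2633 CPM in hindlimb libraries. Medians of Col18a1 were 109 CPM in forelimb and 457 CPM in hindlimb libraries, and of Nid1 210.1 CPM and 665 CPM in forelimb and hindlimb libraries. Vessels and fat cells both lie on basement membranes, and the part of their summed markers in these values was not tested.

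Among 60 proteases, inhibitors and crosslinking enzymes tested, 13 were higher and 30 lower in forelimb tendons, with 2 and 8 separated, beside 6.05% and 9.3% of all genes separated. Of the separated genes that were lower, 5 encode ADAMTS proteases: Adamts4 and Adamts5, which cut aggrecan and versican, Adamts14, which trims procollagen, and Adamts12 and Adamts15. Adamts4 had medians of 2.93 CPM in forelimb and 15.6 CPM in hindlimb libraries, with 48.4 and 44.2 CPM in Achilles 1 and patellar 1. Adamts12 ran from 28.2 to 56.5 CPM in forelimb and from 72.6 to 149 CPM in hindlimb libraries. Mmp23, a membrane-bound metalloproteinase, ran from 8.96 to 18.4 CPM in forelimb and from 54.3 to 129 CPM in hindlimb libraries (log2 fold change -2.68 ± 0.17, adjusted p = 3.4e-08).

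Tgm2, the enzyme that crosslinks matrix proteins, had medians of 210.3 CPM in forelimb and 411 CPM in hindlimb libraries. Adamts20 and Adamtsl4 were the protease-list genes on the forelimb side, and Adamtsl4 overlapped on library totals. Adamts20 ran from 5.28 to 36.9 CPM in forelimb and from 0.277 to 3.89 CPM in hindlimb libraries. It was not called with the muscle covariate (adjusted p = 0.098), nor was Adamts5 (adjusted p = 0.1). Of 54 guidance genes tested, such as semaphorins and ephrins, 14 were higher and 14 lower in forelimb tendons, and 10 and 23 were on library totals. Sema6c, a membrane semaphorin, was separated, at 124, 87, 54.3 and 101 CPM in the flexor and 14.1, 11.4, 10.9 and 14.3 CPM in the supraspinatus libraries, against 1.63 to 9.61 CPM in hindlimb libraries. It overlapped on library totals and was not called with the muscle covariate (adjusted p = 0.091).

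Muscle fibre genes, such as those of myosin and troponin, were higher on the forelimb side, but most of them overlapped between the limbs. Of 29 tested markers 27 were higher and 1 lower in forelimb tendons, with a median log2 fold change of 3.65. Mb, Ryr1 and Mybpc1, 3 of the 29, were separated and higher, beside 6.05% of all genes. Without flexor 3 and patellar 1, an alternative chosen after the data were seen, 22 of the markers were separated and higher. Mb, which encodes the oxygen store of muscle, was at 4116, 2299, 1404 and 3718 CPM in the flexor and 5185, 5186, 4230.0 and 11631 CPM in the supraspinatus libraries, against 6.87, 671, 145 and 747 CPM in the Achilles and 124, 28, 16.5 and 17.9 CPM in the patellar libraries. With the muscle covariate it was not called (adjusted p = 0.59), but Mb, Ryr1 and Mybpc1 are themselves among the markers averaged into that covariate. Losing the call was thus all but fixed for these genes, and nothing is read from it. Car3, a carbonic anhydrase that both slow muscle and fat express, was the marker that went the opposite way, at 203 to 1835 CPM in forelimb and 2432 to 6764 CPM in hindlimb libraries.

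Genes outside the fibre list had the widest forelimb gaps after Grem1. Sh3rf2, a scaffold protein with a RING domain, ran from 11.8 to 37.2 CPM in forelimb and from 0.066 to 0.623 CPM in hindlimb libraries. Sbk2, a kinase known from heart muscle, was at 82.7, 46.5, 23.1 and 79.8 CPM in the flexor and 21.2, 23.6, 32.2 and 83.3 CPM in the supraspinatus libraries, against 0.0763 to 1.79 CPM in hindlimb libraries. Sel1l3 (14.6 to 73.9 CPM in forelimb, 0.156 to 1.99 CPM in hindlimb libraries) and Agbl1 were separated too. Myh8, the perinatal myosin heavy chain, ran from 13.5 to 97.3 CPM in forelimb and from 0.0264 to 3.86 CPM in hindlimb libraries, though its reads can be shared with other myosin genes.

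Of 19 genes of the nerve-muscle junction and of muscle progenitors tested, 9 were separated and higher in forelimb tendons, beside 6.05% of all genes. Chrne, the adult subunit of the acetylcholine receptor, was at 15.7, 11.8, 3.98 and 12.8 CPM in the flexor and 4.92, 5.69, 4.3 and 4.79 CPM in the supraspinatus libraries, against 0.851 to 1.63 CPM in hindlimb libraries. Musk, the kinase that gathers these receptors, had medians of 4.98 CPM in forelimb and 0.865 CPM in hindlimb libraries. Myf5 and Pax7, factors of muscle progenitors, had medians of 5.58 and 2.26 CPM in forelimb libraries, against 0.168 and 0.0318 CPM in hindlimb libraries. With the muscle marker level as a covariate, Chrne and Musk kept their call (log2 fold changes 2.32 ± 0.53 and 1.67 ± 0.54), as did Sh3rf2, Sbk2, Sel1l3, Agbl1 and Myh8 with smaller fold changes. On the log2 scale these were 5.07, 3.85, 2.40, 2.83 and 3.10 with the covariate, beside 6.10, 6.98, 5.03, 5.65 and 6.17 without it. Myf5, Pax7, Myf6, Dok7, Chrnb1 and Kcna7 were not called (adjusted p = 0.72, 0.58, 0.10, 0.80, 0.11 and 0.71), and Chrnb1 overlapped on library totals.

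Over all separated genes, 600 of the 1026 higher in forelimb tendons and 1109 of the 1576 lower ones stayed called with that covariate, and 31 of the higher ones changed sign. The mean log2 level of the muscle markers, used as the covariate, did not overlap between the limbs, running from -0.11 to 4.26 in forelimb and from -4.99 to -0.39 in hindlimb libraries. Muscle content and limb were therefore only partly distinct in these libraries. Energy genes moved with them: 29 of 30 subunits of oxidative phosphorylation and 13 of 18 glycolysis genes were higher in forelimb tendons. With the muscle covariate 0 subunits were higher and 2 lower, and 4 glycolysis genes were higher and 0 lower. No subunit was separated with all 16 libraries, and 16 were without flexor 3 and patellar 1. Hk2, the hexokinase of muscle and fat, had medians of 68.8 CPM in forelimb and 21 CPM in hindlimb libraries and kept its call with the covariate (1.71 ± 0.47).

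**Figure D4:**
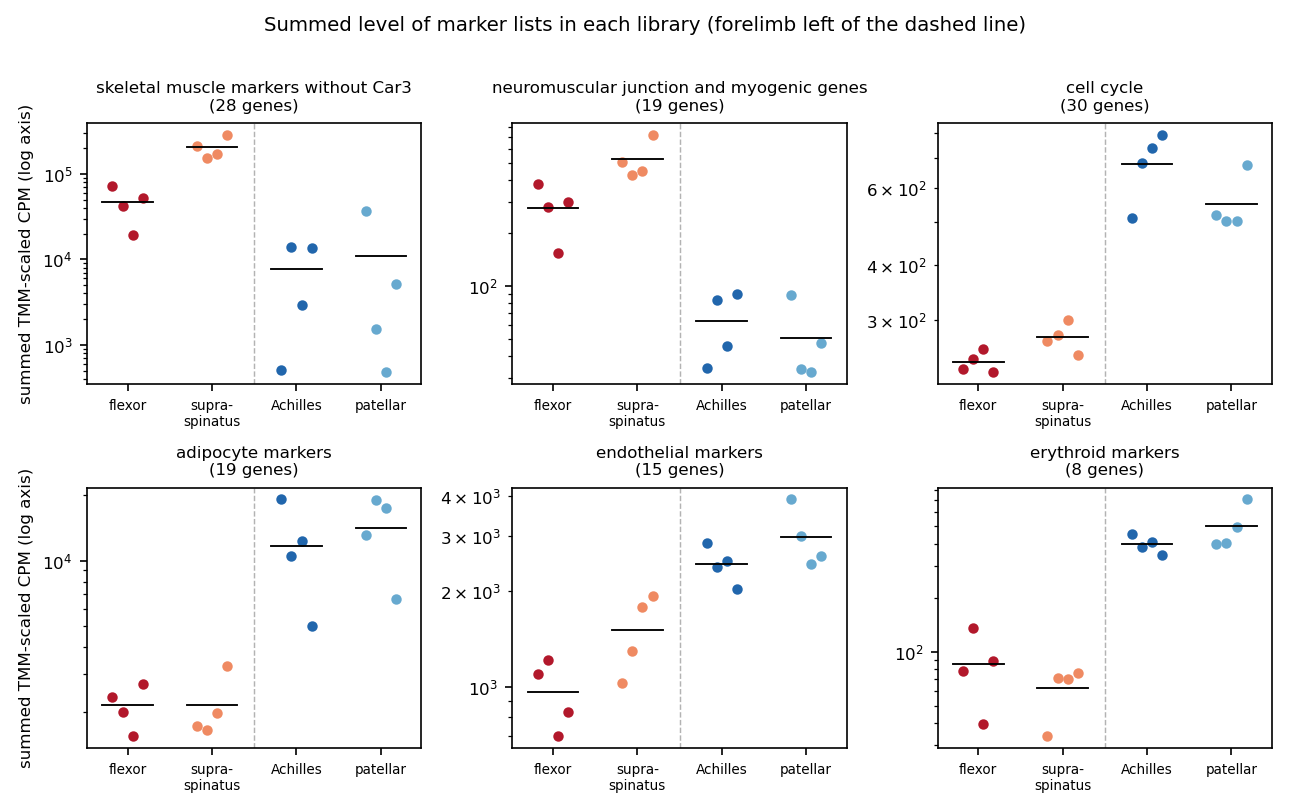
Summed level (TMM-scaled CPM, log axis) of 6 gene lists in each library, with the mean of each tendon as a line and forelimb tendons left of the dashed line. The sums of muscle fibre genes overlap between the limbs, while the junction and myogenic genes are higher, and the cell cycle, adipocyte, endothelial and erythroid genes lower, in every forelimb library.

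Fat cell genes were lower on the forelimb side. Of 19 adipocyte markers tested, 17 were lower and 1 higher in forelimb tendons, 12 were separated, and the median log2 fold change was -3.04. Their summed level ran from 1547 to 3272 CPM in forelimb and from 5003 to 19126 CPM in hindlimb libraries. Lep, the hormone leptin, was at 6.43, 7.73, 5.07 and 16.5 CPM in the flexor and 0.478, 0.624, 1.84 and 1.41 CPM in the supraspinatus libraries, against 384, 244, 319.6 and 97.4 CPM in the Achilles and 187, 374, 342 and 109 CPM in the patellar libraries. Adipoq, the hormone adiponectin, ran from 3.14 to 173 CPM in forelimb and from 647 to 2409 CPM in hindlimb libraries. Flexor libraries held more of both hormones than supraspinatus libraries, but less than any hindlimb library.

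Cfd, Cidec, Retn, Plin1, Fabp4 and Pparg, genes of fat storage and its control, were separated in the same direction. Pparg, the master regulator of fat cells, had medians of 12.9 CPM in forelimb and 86.1 CPM in hindlimb libraries. Genes that are not on the list but known from fat, Tshr and Oxtr, the receptors of thyrotropin and oxytocin, were separated too. Tshr ran from 3.52 to 5.68 CPM in forelimb and from 23.8 to 100.4 CPM in hindlimb libraries, and Oxtr from 0.049 to 3.31 CPM in forelimb and from 17.5 to 47 CPM in hindlimb libraries. Phgdh, the first enzyme of serine synthesis, had medians of 6.99 CPM in forelimb and 75 CPM in hindlimb libraries. With the muscle covariate 10 adipocyte markers were lower and 1 higher.

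All 14 mast cell and granulocyte markers tested, 11 of 13 lymphocyte markers and 7 of 8 erythroid markers were lower in forelimb tendons, and 4, 4 and 6 of them were separated. Their sums did not all keep the limbs apart. The mast cell and granulocyte sums overlapped, at 24.7 to 181 CPM in forelimb and 106 to 479 CPM in hindlimb libraries. So did the lymphocyte sums, at 40.1 to 97.6 CPM in forelimb and 69.5 to 122 CPM in hindlimb libraries, while the erythroid sums ran from 33.6 to 135 CPM in forelimb and from 346 to 707 CPM in hindlimb libraries. Hbb, a haemoglobin chain, was at 55.3, 96.7, 26.3 and 60.9 CPM in the flexor and 23.7, 49.4, 48.5 and 50.9 CPM in the supraspinatus libraries, against 311, 258, 281 and 241 CPM in the Achilles and 278, 282, 345 and 508 CPM in the patellar libraries. Hba-a2 and Alas2, the haem enzyme of red cells, followed with medians of 18.8 and 2.33 CPM in forelimb libraries, against 107 and 14.1 CPM in hindlimb libraries. Haemoglobin genes have near-identical copies, among which reads may have been split. Mpo, the peroxidase of neutrophil granules, ran from 0.0245 to 0.381 CPM in forelimb and from 2.88 to 57.4 CPM in hindlimb libraries, and S100a9 from 0.112 to 0.472 CPM in forelimb and from 1.74 to 7.18 CPM in hindlimb libraries.

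Lck, the kinase of T cells, had medians of 1.34 CPM in forelimb and 5.45 CPM in hindlimb libraries. Macrophage markers were mixed, with 2 higher and 6 lower of 15 tested, and their summed level overlapped between the limbs. Alb, serum albumin, had 0 to 6 counts in the forelimb libraries and 3.65 to 18.2 CPM, or 300 to 1598 counts, in the hindlimb libraries. Albumin is made mainly in liver, and the source of these reads was not tested.

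Cell division genes gave the most complete list. All 30 cell cycle genes tested were lower in forelimb tendons, 26 of them separated, against 28.5% of all genes called lower and 9.3% separated and lower. The median log2 fold change was -1.90, and the summed level ran from 228 to 300 CPM in forelimb and from 503 to 790 CPM in hindlimb libraries. Top2a (ENSRNOG00000053047), the topoisomerase of dividing cells, was at 1.71, 2.27, 1.18 and 1.1 CPM in the flexor and 2.46, 3.71, 4.07 and 2.02 CPM in the supraspinatus libraries. It was at 15.1, 29.4, 40.2 and 46.1 CPM in the Achilles and 23.5, 25.7, 27 and 39.3 CPM in the patellar libraries, a log2 fold change of -3.81 ± 0.26 (adjusted p = 6.1e-08), and -4.39 ± 0.50 with the muscle covariate. Cdk1, the kinase that starts mitosis, ran from 1.18 to 3.89 CPM in forelimb and from 9.28 to 25.1 CPM in hindlimb libraries.

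Genes of DNA replication and of mitosis shared the direction. Mcm5, a subunit of the replicative helicase, ran from 2.93 to 5.65 CPM in forelimb and from 16.7 to 39.2 CPM in hindlimb libraries. Mki67, the proliferation marker, ran from 1.86 to 4.91 CPM in forelimb and from 6.47 to 29 CPM in hindlimb libraries. Ccnb1 and Kif11 had medians of 2.52 and 1.66 CPM in forelimb libraries, against 13.9 and 13.3 CPM in hindlimb libraries. Pcna, the replication clamp, which also serves repair, differed least of those named, with medians of 47.8 CPM in forelimb and 72.2 CPM in hindlimb libraries (log2 fold change -0.58 ± 0.06). With the muscle covariate 27 of the 30 genes remained lower.

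Promoters of these genes are printed because the genes moved together: they are known to be silenced in resting cells through the CHR element and CCAAT boxes, or through E2F sites in genes of DNA replication. The sequences are the 250 bases before the start of each gene in RefSeq on the build GRCr8, 5′ to 3′ on the strand of the gene. Capitals mark CCAAT, the CHR letters TTTGAA and the E2F letters TTTGGCGC, TTTCCCGC, TTTGCCGC or TTTCGCGC, each on either strand, and E2F matches may overlap each other. Top2a lies on the minus strand at chr10:84473094-84473343, Cdk1 on the plus strand at chr20:19265043-19265292 and Mcm5 on the plus strand at chr19:13488563-13488812.
Top2a: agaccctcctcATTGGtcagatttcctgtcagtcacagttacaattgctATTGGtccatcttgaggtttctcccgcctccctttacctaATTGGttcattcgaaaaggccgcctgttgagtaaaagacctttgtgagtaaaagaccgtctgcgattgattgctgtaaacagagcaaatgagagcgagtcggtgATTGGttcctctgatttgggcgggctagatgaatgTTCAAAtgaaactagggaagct
Cdk1: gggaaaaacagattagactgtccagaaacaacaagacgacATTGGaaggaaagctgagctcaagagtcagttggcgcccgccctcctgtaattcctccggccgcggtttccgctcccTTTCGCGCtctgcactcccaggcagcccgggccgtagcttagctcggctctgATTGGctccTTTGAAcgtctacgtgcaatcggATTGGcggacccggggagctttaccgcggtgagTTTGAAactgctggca
Mcm5: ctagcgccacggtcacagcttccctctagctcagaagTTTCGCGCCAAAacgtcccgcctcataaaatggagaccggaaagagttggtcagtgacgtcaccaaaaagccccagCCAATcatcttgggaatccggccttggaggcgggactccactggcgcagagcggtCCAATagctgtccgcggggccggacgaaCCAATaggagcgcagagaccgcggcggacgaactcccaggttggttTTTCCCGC

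Top2a held 4 CCAAT boxes and a CHR element, and Cdk1 held 3 CCAAT boxes, 2 CHR elements and 1 E2F match. Mcm5, the replication gene, held 3 CCAAT boxes and 3 E2F matches, 2 of which overlap, and no CHR letters. Of the 26 separated cell cycle genes 21 had a promoter in the table. Among those 13 held CCAAT (61.9%), 6 the CHR letters (28.6%) and 5 an E2F match (23.8%). Over all 27457 promoters of that length the shares were 34.3, 16 and 1.81%, and over the promoters of tested genes 34.9, 10.5 and 2.99%. Among all separated genes that were lower in forelimb tendons, 38.7% of 1112 promoters held CCAAT, 12.9% the CHR letters and 3.87% an E2F match. Each share was a little above that of the tested genes. A match is a description of letters and not a shown site. Cell cycle genes are known for these letters, so nothing about the limbs is read from the shares of that list.

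Stress genes leaned the other way. Of 28 immediate early and heat shock genes tested, 18 were higher and none lower in forelimb tendons (17 and 1 on library totals), with a median log2 fold change of 0.87, but Hspb1 was the only one separated. This small heat shock protein gene was at 576, 491, 581 and 579.9 CPM in the flexor and 501, 486, 339.7 and 481 CPM in the supraspinatus libraries, against 83.2, 172, 168 and 186 CPM in the Achilles and 151, 169, 153 and 138 CPM in the patellar libraries. With the muscle covariate 3 of the 28 genes were higher.

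Differences between the tendons of one limb were counted for the separated genes at an adjusted p under 0.05. Of the 1026 separated genes that were higher, 124 were higher in flexor than in supraspinatus tendons and 321 lower, and 46 were higher in Achilles than in patellar tendons and 5 lower. Of the 1576 that were lower, 203 were higher in flexor than in supraspinatus tendons and 186 lower, and 27 were higher in Achilles than in patellar tendons and 53 lower. Over all genes tested these counts were 3964, 4118, 525 and 349. Even genes had tendon means (CPM + 0.1) within 1.25-fold of each other in both limbs, a cutoff chosen after the values were seen. They were counted only among separated genes with a gene symbol and at least 5 CPM in both tendons of the higher limb. The share over all genes tested was not counted. Of 791 such genes higher in forelimb tendons 257 were even, and of 1037 lower ones 502 were. Ccnd2, a cyclin of the first growth phase, was one of them, at 109, 112, 111 and 105 CPM in the flexor and 111, 128, 109.8 and 105 CPM in the supraspinatus libraries, against 292, 315, 267 and 329.6 CPM in the Achilles and 302, 315, 272 and 284 CPM in the patellar libraries. Its log2 fold change was -1.42 ± 0.06 (adjusted p = 4.2e-09). Nnat, Chrdl1, Igfbp5, Prelp, Hspb1 and Fez1 were among the other even genes. The Achilles mean of Nnat was raised by Achilles 1, at 474 CPM beside 132 to 168 CPM in the other Achilles libraries. Fez1 averaged 118.8 ± 28.1 CPM in flexor and 118.9 ± 22.7 CPM in supraspinatus tendons. It averaged 37.9 ± 4.59 CPM in Achilles and 33.5 ± 6.21 CPM in patellar tendons (SD, n = 4 each).

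**Figure D5:**
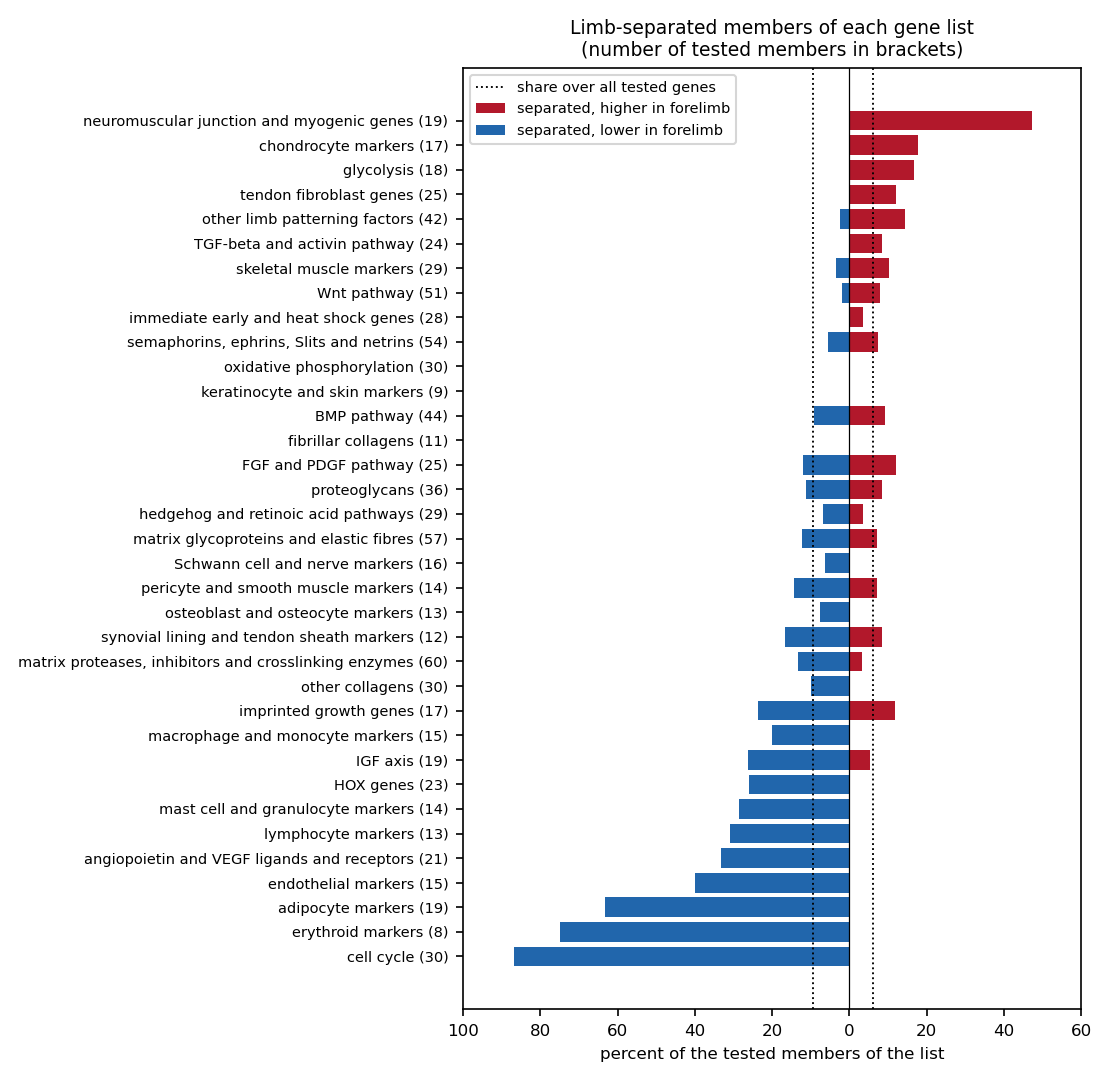
Share of the tested members of each of 35 gene lists (rows, with the number tested in brackets) that were limb-separated, with genes higher in forelimb tendons to the right and lower ones to the left. Dotted lines mark the shares over all tested genes, 6.05% higher and 9.3% lower; cell cycle, erythroid and adipocyte lists reach furthest to the left and the junction and myogenic list furthest to the right.

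The order of genes along the chromosomes was looked at as a description, with no test. Among 14060 tested genes placed by RefSeq order, 8.86% of the separated genes higher in forelimb tendons were followed by another of the same kind, beside 6.35% of all genes. For those that were lower the shares were 14.2% and 9.98%. The longest run held 8 genes, lower in forelimb tendons: Gimap8, Gimap9, Gimap4, Gimap6, Gimap7, Gimap5, Tmem176b and Tmem176a. Gimap genes encode small GTPases of lymphocytes, and Gimap4 averaged 16.6 and 28.0 CPM in flexor and supraspinatus tendons, against 62.9 and 75.5 CPM in Achilles and patellar tendons. A run of 4 held the class II antigen genes RT1-Da, RT1-Db2, RT1-Db1 and RT1-Ba, which share similar sequence, so that reads may be split among them. RT1-Da averaged 40.7 and 50.8 CPM in flexor and supraspinatus tendons, against 161.6 and 291.2 CPM in Achilles and patellar tendons. Another run of 4 was Hoxc11, Hoxc10, Hoxc9 and Hoxc8, and on the forelimb side the longest was Ccdc33, Stra6, Islr and Islr2.

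The authors' deposited table of tests between pairs of tendons lists 912 of the separated genes that were higher and 1284 of those that were lower. Of these, the authors' deposited table gives 758 and 1197 with an FDR under 0.05 in all 4 pairs of a forelimb with a hindlimb tendon. Over all listed genes 1021 were higher and 1519 lower in all 4 pairs, in a table of 12588 genes. In the fit made here, 921 of the 1026 and 1484 of the 1576 passed in all 4 pairs, and 1290 and 1902 of all 16948 genes did, which is 7.61% and 11.2%. These pairs share libraries, and the separated genes were chosen on the same libraries. Passing in all 4 pairs is thus largely set by that choice, in either table, and nothing is read from it.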

How the data were processed

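Total RNA of 16 rat tendon libraries was sequenced. The authors deposited whole-number counts per gene for each library, the unit used for all tests here, made with HISAT2, FastQC and edgeR on the build rn6, per the submitters' processing notes. The authors' deposited table also gives log2 fold changes and p-values between pairs of tendons, used only for the counts of genes named as theirs. No column was left unmapped.

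Genes were kept by filterByExpr (minimum count 10, minimum total 15), libraries were TMM-scaled, and edgeR 4.0.16 (R 4.3.3) fitted a quasi-likelihood model with 1 coefficient for each tendon and 12 residual degrees of freedom. The limb contrast was the mean of the forelimb tendons minus the mean of the hindlimb tendons, with Benjamini-Hochberg adjustment at 0.05 over all genes tested. Errors of fold changes are standard errors. The scripts were tested on simulated data. Alternatives used limma 3.58.1, DESeq2 1.42.0, other scalings and filters, a replicate block, a muscle marker covariate and libraries left out.

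Gene lists held 987 symbols, 941 of them distinct, and 882 matched. Members and lists were chosen with earlier results of these data known. Genes were named among separated genes at 5 CPM or more in both tendons of the higher limb, as the 15 for each direction with the widest gap or largest fold change or as members of a list. Those below 5 CPM, in neighbour runs, even across tendons or at the edge of the rule were chosen after their values were seen. Some genes that meet the rule are not reported here. Counting error alone sets the floor of 3 counts. Whether counting used strand is not given in the sources used here.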

Additional observations from a re-analysis of the deposited data

Results flagged for a closer look

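Of 628 sets of 4 libraries of a tendon examined, 63 held a library far from the other 3 at the 95% level. The measure was Dixon's ratio, the gap of that library to its nearest over the range of all 4. Chance alone flags about 1 in 20 such sets. Values below are in CPM, the library's own first and the range of the other 3 libraries of its tendon after it. The values of Hoxc9 and Hoxc11 in flexor 3 and of Hoxc11 in supraspinatus 4 rest on 0 or 1 count, below the floor of 3 counts, and say nothing of the library.

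Flexor 3 stood apart with 0 for Hoxc9 (others 0.00944 to 0.0103), 0.00973 for Hoxc11 (others 0) and 39.4 for Tbx5 (others 25.3 to 25.9). In flexor 3 the level was also 148 for Smad3 (others 117 to 122), 1210 for Dkk3 (others 837 to 874) and 4.32 for Mest (others 8.93 to 9.24). In flexor 3 the level was also 29.3 for Fgf9 (others 21.1 to 22.1), 16.2 for Angpt2 (others 24.4 to 25.2) and 2400 for Cilp (others 1380 to 1500). In flexor 3 the level was also 6710 for Clec3a (others 3810 to 4080) and 3.85 for Cdk1 (others 2.35 to 2.58). Patellar 1 stood apart with 2.57 for Hoxc9 (others 4.44 to 4.81), 1.06 for Tbx5 (others 6.05 to 6.86) and 53.8 for Smad3 (others 38.9 to 41). In patellar 1 the level was also 112 for Angptl4 (others 37.9 to 45.7), 44.2 for Adamts4 (others 14.1 to 16.5) and 124 for Mb (others 16.5 to 28). In patellar 1 the level was also 2.31 for Dok7 (others 0.145 to 0.369), 116 for Ryr1 (others 3.6 to 18.8) and 420 for Pfkm (others 33 to 72.9). In patellar 1 the level was also 12.6 for Sox6 (others 5.7 to 6.55), 12.8 for Myf6 (others 0.33 to 1.6) and 8.04 for Chrnb1 (others 1.19 to 1.76). In patellar 1 the level was also 41700 for skeletal muscle markers summed (others 6950 to 8280) and 36500 for skeletal muscle markers without Car3 summed (others 479 to 5130). Supraspinatus 4 stood apart with 0.0162 for Hoxc11 (others 0), 233 for Twsg1 (others 294 to 298) and 22.2 for Fgfr4 (others 15.2 to 16). In supraspinatus 4 the level was also 3490 for Clec3a (others 3950 to 3990), 11600 for Mb (others 4230 to 5190) and 10.4 for Myf5 (others 5.81 to 6.45). In supraspinatus 4 the level was also 33.7 for Dok7 (others 20.6 to 22.2), 142 for Agbl1 (others 51.5 to 55.8) and 126 for Hk2 (others 62.8 to 71.3). Achilles 1 stood apart with 12.8 for Isl1 (others 22.8 to 24.4), 37.7 for Frzb (others 17.1 to 19.1) and 474 for Nnat (others 132 to 168). In Achilles 1 the level was also 1.68 for Stra6 (others 0.745 to 0.837), 376 for Tie1 (others 305 to 316) and 48.4 for Adamts4 (others 10.9 to 16.7). In Achilles 1 the level was also 6140 for Car3 (others 3000 to 3470), 8500 for Schwann cell and nerve markers summed (others 1220 to 1490) and 234 for mast cell and granulocyte markers summed (others 106 to 125). Patellar 2 stood apart with 0.808 for Isl1 (others 0 to 0.0509). Patellar 4 stood apart with 7.7 for Frzb (others 16.6 to 18), 109 for Egfl6 (others 32 to 42) and 18.9 for Kif11 (others 9.42 to 11). In patellar 4 the level was also 22.2 for Cdk1 (others 13.2 to 14.1), 11 for Hk2 (others 21.2 to 21.8) and 676 for cell cycle summed (others 503 to 521). Flexor 2 stood apart with 397 for Igfbp4 (others 305 to 307), 539 for Tppp3 (others 498 to 505) and 491 for Hspb1 (others 576 to 581). Flexor 4 stood apart with 12 for Nnat (others 5.3 to 6.06). Flexor 1 stood apart with 64 for Srpx (others 72.8 to 74). Achilles 4 stood apart with 2030 for Clec3a (others 792 to 999), 31.8 for Adamts5 (others 51.9 to 54.9) and 17.5 for Oxtr (others 28.7 to 31). In Achilles 4 the level was also 24.8 for Sox9 (others 7.4 to 7.6). Supraspinatus 3 stood apart with 340 for Hspb1 (others 481 to 501). Achilles 2 stood apart with 0.683 for Myh8 (others 0.272 to 0.334). Supraspinatus 1 stood apart with 23.7 for Hbb (others 48.5 to 50.9) and 33.6 for erythroid markers summed (others 70.4 to 75.7).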

How the results depend on the processing

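On library totals without TMM, where the median of all genes shifted to -0.22, genes higher in forelimb tendons numbered 3261, genes higher and lower in all 4 pairs 822 and 2935, and separated genes 551 higher and 2578 lower. Of the genes tested, calls in the higher direction made up 31.1% of all calls there, against 51.5% with TMM and 42% with the muscle covariate. With the muscle marker covariate the counts were 1209 higher and 1671 lower over all genes, and 233 higher and 508 lower in all 4 pairs. Against a threshold of 2-fold, 1092 genes were higher and 1196 lower. The causes were not tested. Tbx4 turned to 0.30 (adjusted p = 0.78) with limb as a single factor and to 1.30 (adjusted p = 0.016) with supraspinatus left out. With the muscle covariate Pax7 turned to -0.70, Ryr1 to -0.65 and Myf6 to -0.69. Of 140 named genes, 20 others lost their call with that covariate and 19 at 2-fold, and none did on library totals or with a replicate block. Ryr1, and Mb and Mybpc1 among those 20, are part of the covariate, so their change was all but fixed. Leaving out each library in turn gave 4869 to 5255 genes higher, 4624 to 4901 lower, 1038 to 1359 higher and 1700 to 1919 lower in all 4 pairs, and 1014 to 1335 higher and 1568 to 1777 lower among separated genes. Without flexor 3 and patellar 1, a choice made after the data were seen, 1528 separated genes were higher and 1783 lower. Whether replicate numbers pair the libraries is not settled by the labels, and they were treated as unpaired: same-number libraries correlated at -0.21 to 0.37, 9 of 24 pairs over 0.1, and 8 of 16 libraries correlated best with their own number, a hint from the data and not the design. A replicate block gave 5200 genes higher and 4742 lower.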
